A study of Mus with 9 samples.

Results

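The cell cycle is braked by 7 small proteins that bind cyclin-dependent kinases (CDKs). The 7 mouse genes that encode them were followed by name through 9 RNA-seq libraries of kidney. The genes were Cdkn1a, Cdkn1b and Cdkn1c of the CIP/KIP family and Cdkn2a, Cdkn2b, Cdkn2c and Cdkn2d of the INK4 family, 7 of the 54532 genes in the deposited table. All kidneys came from male C57BL/6 mice that had lost the other kidney by unilateral nephrectomy at 18 months of age. The 18 mo group was killed 1 week after that operation. The 21 mo group then received daily intraperitoneal saline for 12 weeks, and the 21 mo/O304 group received O304, an activator of the energy-sensing kinase AMPK, at 10 mg/kg/day by the same route for 12 weeks. Each group has 3 libraries, so 21 mo against 18 mo asks what went with ageing and 21 mo/O304 against 21 mo what went with the drug. Age, time since surgery and injections differ together between the 18 mo group and the others and cannot be told apart. The sources used here do not state that each library is a separate mouse, so p-values measure only the spread between these libraries.

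CIP/KIP proteins bind cyclin-CDK complexes across the cell cycle, whereas INK4 proteins bind CDK4 and CDK6 and keep them from their D-type cyclins. Either way less of the retinoblastoma protein Rb is phosphorylated and E2F factors stay bound, which holds cells in G1. Cdkn1a (p21) is a classical p53 target, Cdkn1b (p27) is typical of resting cells and is controlled largely through protein stability, and Cdkn1c (p57) is an imprinted gene found in podocytes of the mature kidney. Cdkn2a encodes p16Ink4a and, in another reading frame, p19Arf, which holds back Mdm2, and Cdkn2b (p15) is its neighbour and responds to TGF-β. Cdkn2a, Cdkn2b and Cdkn1a are widely used as markers of senescence, a lasting exit from the cell cycle.

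The genes lie on 5 chromosomes of GRCm38, with 3 of the 4 INK4 genes on chromosome 4. Cdkn1a (ENSMUSG00000023067) is on the plus strand at chr17:29090976-29100727, Cdkn1b (ENSMUSG00000003031) on the plus strand at chr6:134920401-134925513 and Cdkn1c (ENSMUSG00000037664) on the minus strand at chr7:143458339-143461050. Cdkn2a (ENSMUSG00000044303) at chr4:89274471-89294653 and Cdkn2b (ENSMUSG00000073802) at chr4:89306299-89311039 share the minus strand and are 11645 bases apart. Cdkn2c (ENSMUSG00000028551) is farther along the same strand at chr4:109660876-109667189, and Cdkn2d (ENSMUSG00000096472) is on the minus strand at chr9:21288410-21291407. Counts are per gene and do not separate the p16Ink4a and p19Arf transcripts of Cdkn2a. Only Cdkn1a and Cdkn1c overlap another annotated gene, each on the opposite strand, and those partners hold 4 and 0 counts over all 9 libraries.

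The libraries held 15636378 to 18396725 counts on genes, so that 1 count is worth 0.0458 to 0.0669 CPM, the count scaled to library size by TMM. The 21 mo libraries were far less alike than those of the other groups, with a biological coefficient of variation of 44.1% against 18.1% at 18 mo and 20.6% with O304. The markers of proximal tubule, the bulk of the kidney cortex, summed to 12713 to 16419 CPM at 18 mo and 14250 to 15811 CPM with O304. They summed to 13505, 6755 and 1708 CPM in 21 mo replicates 1, 2 and 3. The 10 injured tubule markers, among them Havcr1 and Lcn2, summed to 1678, 14228 and 17307 CPM in the same libraries against 1052 to 1145 CPM at 18 mo and 1088 to 1585 CPM with O304. In bulk RNA, fewer cells of a type and less RNA per cell cannot be told apart. Every result below that sets 21 mo against another group rests on these 3 unlike libraries, and the part of cell makeup in those results was not tested.

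Of the 7 genes, 6 passed the filter on low counts and entered the test with 15902 genes in all, and Cdkn2a did not pass. Between genes, levels were compared as FPKM, which divides by gene length. At 18 mo Cdkn1b was highest at 9.14 FPKM ± 0.412 (SD, n = 3), and its libraries did not overlap those of Cdkn2c, next at 7.08 ± 0.428. Cdkn1c at 6.05 ± 1.10 overlapped both Cdkn2c above it and Cdkn2d, at 5.28 ± 0.369, below it. Cdkn1a followed at 3.42 ± 0.911 FPKM, Cdkn2b at 1.27 ± 1.63 and Cdkn2a at 0.0685 ± 0.0790. The 18 mo kidneys thus held most of their inhibitor RNA as transcripts of p27, p18 and p57.

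The order in the O304 group differed from that at 18 mo only in that Cdkn1c, at 8.32 FPKM ± 3.77, stood above Cdkn2c, at 6.88 ± 0.595, and the libraries of these genes overlapped in both groups. Cdkn1b again had the highest mean, at 11.02 FPKM ± 0.326, but here its libraries overlapped those of Cdkn1c. In O304 replicate 3 Cdkn1c was at 12.5 FPKM and Cdkn1b at 11.3. Cdkn1a was again the fifth, at 3.90 FPKM ± 0.499. At 21 mo the order was different, with Cdkn1c at 14.0 FPKM ± 12.4 and Cdkn1a at 13.4 ± 7.63 above Cdkn1b at 10.2 ± 0.680, although the libraries of all 3 overlapped. The ratio of Cdkn1a to Cdkn1b FPKM was 0.319, 0.320 and 0.482 in the 18 mo libraries and 0.389, 0.312 and 0.360 with O304. In the 21 mo libraries it was 0.601, 1.27 and 2.11, above every library of both other groups.

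Summed over the 7 genes, the level was 30.5 to 34.3 FPKM at 18 mo and 33.6 to 41.7 FPKM with O304. The 21 mo replicates 1 to 3 stood at 34.7, 46.7 and 89.4 FPKM, so the spread within that group exceeded the distance between the other groups. INK4 genes made up 39.3% to 46.0% of the sum at 18 mo, 32.8% to 35.3% at 21 mo and 33.0% to 39.0% with O304.

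**Figure D1:**
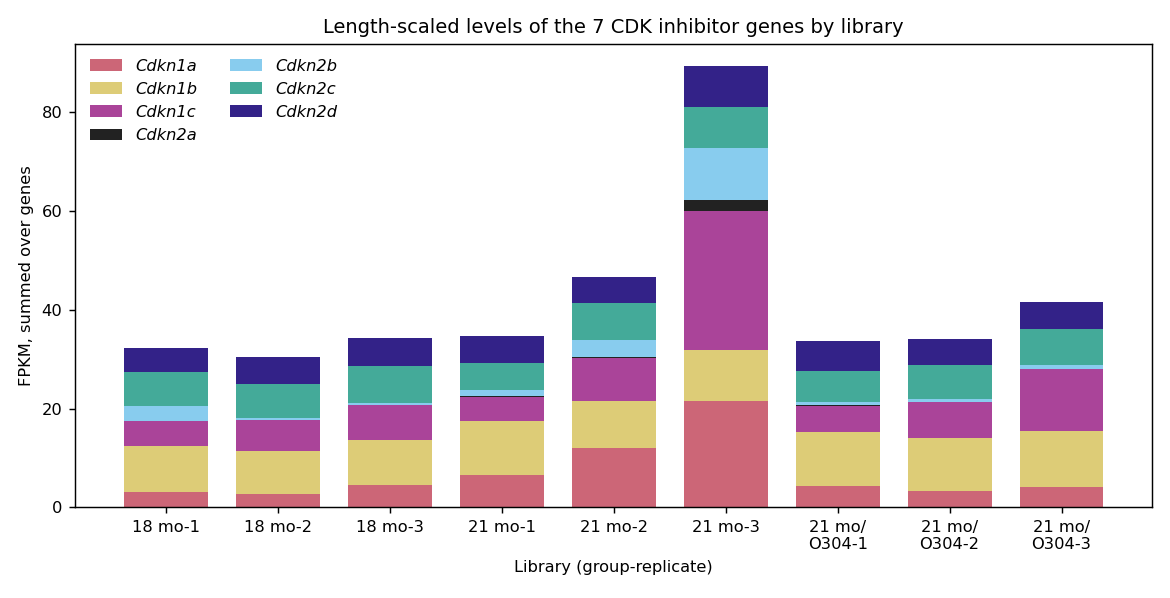
Stacked bars give the FPKM of the 7 CDK inhibitor genes in each of the 9 libraries, with the summed FPKM on the vertical axis and 1 colour per gene. The bar of 21 mo replicate 3 reaches 89.4 FPKM, while the 18 mo bars end between 30.5 and 34.3, and the Cdkn1b segment has much the same height in all libraries.

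Cdkn1a (p21) was the member that set the 21 mo group apart most evenly. It was at 11.2, 10.04 and 16.3 CPM in 18 mo replicates 1 to 3. It was at 23.9, 44.3 and 79.8 CPM in the 21 mo replicates. With O304 it was at 15.7, 12.2 and 14.96 CPM. Each 21 mo library was above each library of the other groups, while the 18 mo and O304 libraries overlapped. The lowest 21 mo library was 1.91 times and the highest 6.37 times the 18 mo mean.

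The fitted difference of Cdkn1a between 21 mo and 18 mo was 1.98 log2 units (SE 0.39, 95% CI 1.09 to 2.87), or 3.94-fold. Its p in edgeR's quasi-likelihood test was 0.000701, place 166 of 15902 genes, and its Benjamini-Hochberg adjusted p was 0.0626, which misses the threshold of 0.05. For 21 mo/O304 against 21 mo it was -1.79 log2 units (SE 0.39, 95% CI -2.67 to -0.91), with an edgeR p of 0.00130 and an adjusted p of 0.175. Both differences share the 21 mo libraries and are not independent. The exact permutation test of 3 against 3 libraries, two-sided, gave 0.1 for each, the smallest p it allows.

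The call on Cdkn1a depended on the tool and on the libraries, and the direction did not. DESeq2 gave adjusted p-values of 0.000130 and 0.00155 for the 21 mo against 18 mo and the O304 against 21 mo differences. With edgeR on only the 6 libraries compared, the adjusted p-values were 0.179 and 0.340. Over the 20 alternatives the adjusted p of the first ran from 0.000130 to 0.248, with 4 under the threshold, and that of the second from 0.000805 to 0.400, with 3 under it. Without 21 mo replicate 1, the library with the least Cdkn1a of its group, the difference from 18 mo was 2.32 log2 units (edgeR adjusted p = 0.00346) and that of O304 from 21 mo was -2.13 (adjusted p = 0.00532). That fit called 25.4% of all genes in the first comparison and 23.1% in the second. Without 21 mo replicate 3, which had the most Cdkn1a, the differences were 1.43 (edgeR adjusted p = 0.0581) and -1.25 log2 units.

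Cdkn1b (p27) was the steadiest of the 7 genes, with its highest library only 1.32 times its lowest. It was at 45.0, 40.2 and 43.4 CPM at 18 mo, at 51.0, 44.6 and 48.4 CPM at 21 mo and at 51.8, 50.1 and 53.2 CPM with O304. All 3 O304 libraries were above all 3 18 mo libraries, and the 21 mo libraries overlapped both. O304 differed from 18 mo by 0.27 log2 units (SE 0.10, 95% CI 0.05 to 0.49), or 1.2-fold, with an edgeR p of 0.0235 and an adjusted p of 0.457. The 20 alternatives gave adjusted p-values from 0.0865 to 0.857 for it. The difference between 21 mo and 18 mo was 0.16 log2 units (95% CI -0.06 to 0.39, edgeR adjusted p = 0.318).

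Cdkn1c (p57) was high in a single library. It was at 10.4, 12.8 and 14.9 CPM at 18 mo, at 10.6, 18.4 and 59.8 CPM at 21 mo and at 10.9, 15.2 and 26.3 CPM with O304. The 3 groups overlapped, with the lowest library of each between 10.4 and 10.9 CPM. The fitted difference of 21 mo from 18 mo was 1.22 log2 units (SE 0.58, 95% CI -0.09 to 2.54, edgeR adjusted p = 0.218). Without 21 mo replicate 3 it was 0.17 log2 units, and without 21 mo replicate 1 it was 1.64 (edgeR adjusted p = 0.0399, in a range of 0.0399 to 0.960 over 20 alternatives). The fit without 21 mo replicate 1 called 25.4% of all genes in this comparison. O304 differed from 21 mo by -0.77 log2 units (edgeR adjusted p = 0.441), and by 0.28 in the opposite direction without 21 mo replicate 3.

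Podocytes, the filter cells of the glomerulus, are a known site of Cdkn1c. The 7 podocyte markers were all detected in every library, and 6 of the 7 were at their highest in 21 mo replicate 3, the library with the most Cdkn1c. The seventh, Clic5, was at its lowest of all 9 libraries there, at 69.5 CPM. They summed to 313 to 436 CPM at 18 mo, to 349, 299 and 724 CPM in the 21 mo replicates and to 346, 524 and 525 CPM with O304. The part of podocyte RNA in the Cdkn1c values was not tested. Of 10 imprinted neighbours of Cdkn1c on distal chromosome 7, 7 were tested and none passed the adjusted threshold in edgeR in any comparison, nor in DESeq2. The unadjusted p of Phlda2, a neighbour that is also expressed from the maternal allele, was 0.0230 (edgeR adjusted p = 0.134), with mean levels of 19.1 CPM at 18 mo, 10.8 at 21 mo and 14.2 with O304. Slc22a18, another neighbour, was at 577.4, 262.9 and 554.9 CPM on average in the 18 mo, 21 mo and O304 groups. In 21 mo replicates 1 to 3 it was at 507.8, 203.6 and 77.2 CPM. Kcnq1ot1, the antisense RNA that silences the domain on the paternal allele, was at 2.36, 1.56 and 2.08 CPM on average in the same groups. Phlda2, Slc22a18 and Kcnq1ot1 were named for their small p and had their highest mean at 18 mo. Of the other 4, Cd81 and Tssc4 also had their highest mean at 18 mo. Kcnq1, at 30.1, 33.4 and 27.7 CPM, and Nap1l4, at 81.9, 82.0 and 79.7 CPM, had theirs at 21 mo. The libraries of Kcnq1 and Nap1l4 overlapped between the groups, and the Nap1l4 means hardly differed.

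Cdkn2b (p15) spanned the widest range of the 6 tested genes, its highest library being 33.4 times its lowest. It was at 4.58, 0.493 and 0.453 CPM at 18 mo, which are 74, 8 and 8 counts. It was at 1.61, 4.94 and 15.1 CPM at 21 mo, from 24, 87 and 330 counts. With O304 it was at 0.872, 0.775 and 1.15 CPM, from 15, 13 and 18 counts. Every 21 mo library was thus above every O304 library, but 18 mo replicate 1 lay among the 21 mo libraries.

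For 21 mo/O304 against 21 mo the fitted difference of Cdkn2b was -2.96 log2 units (SE 1.04, 95% CI -5.30 to -0.61), with an edgeR p of 0.0190 and an adjusted p of 0.190. DESeq2 gave an adjusted p of 0.0305, within a range of 0.0130 to 0.412 over 19 alternatives, of which 3 were under the threshold. Without 21 mo replicate 3 the difference was -1.80 log2 units (edgeR adjusted p = 0.412), and without 21 mo replicate 1 it was -3.43 (edgeR adjusted p = 0.0340). The fit without 21 mo replicate 1 called 23.1% of all genes in this comparison. For 21 mo against 18 mo the difference of Cdkn2b was 1.98 log2 units (SE 0.98, 95% CI -0.24 to 4.20, edgeR adjusted p = 0.234). That value turned on 2 libraries, being 3.91 without 18 mo replicate 1 (edgeR adjusted p = 0.168), 0.82 without 21 mo replicate 3 (edgeR adjusted p = 0.633) and 2.76 without both (edgeR adjusted p = 0.113). The fit without both was chosen after the values were seen.

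Cdkn2a, the gene of p16Ink4a and p19Arf, was near the limit of detection in 8 of the 9 libraries. It held 1, 3 and 0 counts at 18 mo, 2, 4 and 59 counts at 21 mo and 4, 1 and 0 counts with O304. All but 6 of the 65 counts of the 21 mo group came from replicate 3, where the level was 2.703 CPM. With edgeR run on all genes without a filter, its adjusted p was 0.164 for 21 mo against 18 mo and 0.234 for O304 against 21 mo. DESeq2 gave 0.0964 for the first and no adjusted p for the second. At this depth no difference between 18 mo and O304 was detectable.

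The library with the most Cdkn2a and Cdkn2b also held the most RNA of urothelium, the lining of the renal pelvis and ureter, on a list of 9 markers chosen after the values were seen. These markers summed to 6.82, 58.3 and 345.8 CPM in the 21 mo replicates, against 1.73 to 7.37 CPM at 18 mo and 1.74 to 3.06 CPM with O304, and all 9 were highest in 21 mo replicate 3. Krt15, a keratin of basal urothelial cells, had 0 counts in every 18 mo library and in 21 mo replicate 1, and 164 and 1948 counts in 21 mo replicates 2 and 3. The 18 mo library with the high Cdkn2b count also had the highest urothelial sum of its group. In that library Upk3b had 52 counts against 2 and 6 in the other 18 mo libraries and Upk1a 32 against 4 and 17, whereas Upk3a had 0 against 2 and 8 and Krt5 had 3 against 1 and 8. Upk3b is also on the mesothelial list. Of 6 mesothelial markers, also chosen after the fact, 3 were highest in 21 mo replicate 3. Msln had 0, 69 and 495 counts in the 21 mo replicates, whereas Gpm6a was at 200, 110 and 25.8 CPM. The last is the lowest Gpm6a value of all libraries, and Lrrn4 and Muc16 had 0 counts there. The sum of the list ran from 99.4 to 261 CPM over all libraries and was carried by Gpm6a in 8 of 9. In 21 mo replicate 3 the sum was carried by Krt19, at 198 CPM. The part of these cells in the Cdkn2a and Cdkn2b values was not tested. Mtap, the methionine salvage gene beside Cdkn2a and the only one of 5 listed neighbours with enough counts to test, was at 33.8, 41.4 and 32.2 CPM on average in the 18 mo, 21 mo and O304 groups (edgeR adjusted p = 0.132 for 21 mo against 18 mo and 0.175 for O304 against 21 mo).

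Cdkn2c (p18) and Cdkn2d (p19Ink4d) stayed close to 1 level in most libraries. Cdkn2c was at 18.9, 18.98 and 20.9 CPM at 18 mo, at 15.3, 20.3 and 23.6 CPM at 21 mo and at 17.3, 19.4 and 20.5 CPM with O304. Its 21 mo libraries lay on both sides of the others. Between 21 mo and 18 mo it differed by 0.01 log2 units (95% CI -0.37 to 0.39, edgeR adjusted p = 0.965), and between O304 and 21 mo by -0.06 (95% CI -0.43 to 0.32, edgeR adjusted p = 0.860). Cdkn2d was at 7.99, 8.63 and 9.05 CPM at 18 mo, at 8.90, 8.75 and 13.4 CPM at 21 mo and at 9.89, 8.58 and 8.98 CPM with O304. Its highest library, 21 mo replicate 3, was again the one that was highest in Cdkn1a, Cdkn1c, Cdkn2a, Cdkn2b and Cdkn2c, and the fitted difference of 21 mo from 18 mo was 0.28 log2 units (95% CI -0.18 to 0.74, edgeR adjusted p = 0.406) and 0.027 without that library.

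**Figure D2:**
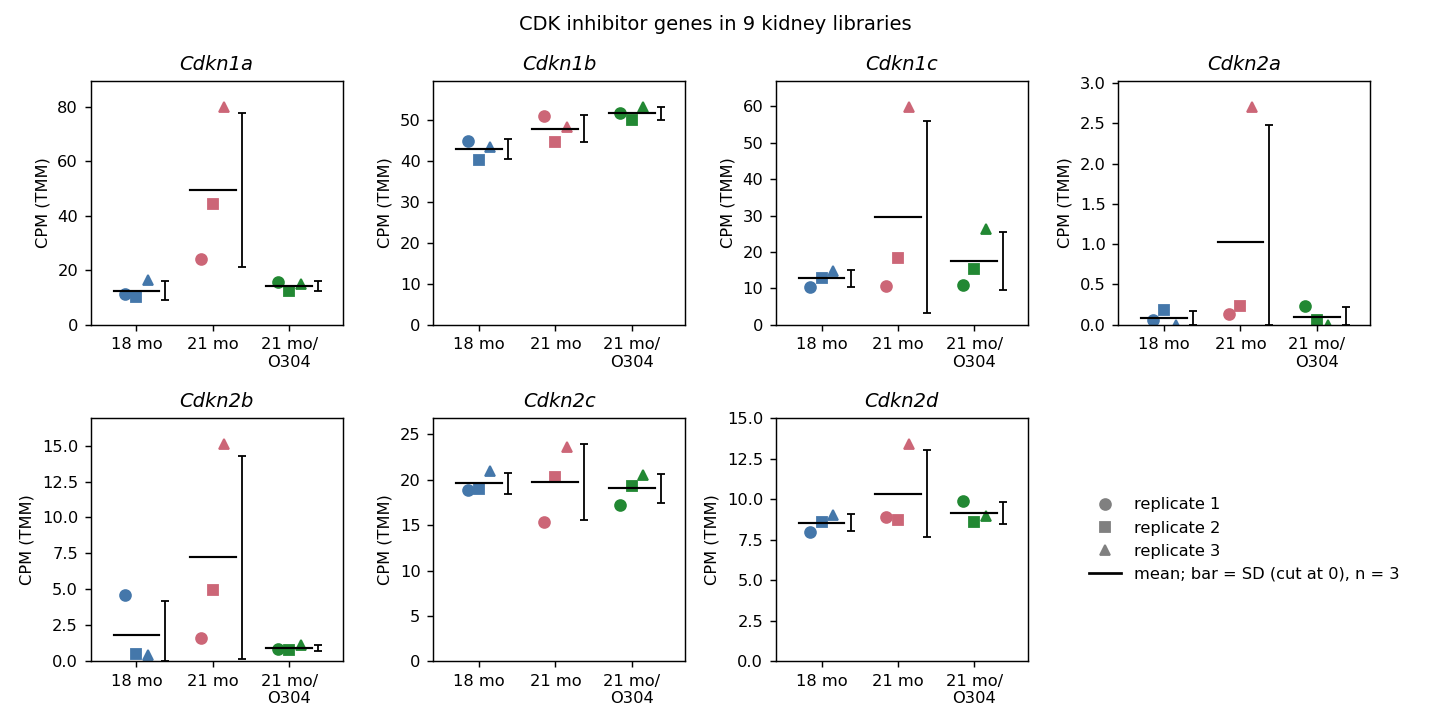
One panel per gene plots the CPM of each library by group, with a marker for each replicate number, a line at the mean and a bar for the SD (n = 3), on axes that start at 0 and differ between genes. Cdkn1a at 21 mo lies between 23.9 and 79.8 CPM, above all libraries of the other groups, while Cdkn1c, Cdkn2a and Cdkn2b are drawn up by 21 mo replicate 3.

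Counted over the genes, none of the 6 tested members passed the adjusted threshold in 21 mo against 18 mo, where edgeR called 0.0189% of all genes. DESeq2 called 1 member among 2059 genes, which were 7.29% of the 28225 genes it was run on. limma voom with sample quality weights called 2 members, but it called 8409 genes, or 52.9%. It gave the 21 mo libraries weights of 0.223, 9.11 and 0.132, so that its 21 mo mean is close to that of replicate 2. At an unadjusted p under 0.05, 1 of 6 members was higher, Cdkn1a, against 14.0% of all genes. The libraries of 1 of 6 members lay wholly above those at 18 mo, against 13.5% of all genes. All 6 fitted differences were above 0, against 52.7% of all genes, with a median of 0.75 log2 units against 0.03. Without 21 mo replicate 3 the median of the 6 was 0.16 and 5 of 6 were above 0.

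In 21 mo/O304 against 21 mo, none of the 6 passed with edgeR, which called 0% of all genes there. DESeq2 called 2 members among 947 genes, which were 3.36% of its 28225 genes. limma voom with weights called 3 among 6528 genes, or 41.1%. At an unadjusted p under 0.05, Cdkn1a and Cdkn2b were lower, 2 of 6 against 12.4% of all genes, and none was higher, against 8.27%. The O304 libraries of the same genes lay wholly below the 21 mo libraries, 2 of 6 against 10.5% of all genes. The median difference of the 6 was -0.47 log2 units against -0.02 for all genes, and 1 of 6 was above 0, against 48.2%. This summary turned on 1 library, since without 21 mo replicate 3 the median was 0.08 and 4 of 6 were above 0, while without 21 mo replicate 1 the median was -0.73. With 6 genes each of these shares moves by a large step for 1 gene.

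In 21 mo/O304 against 18 mo, none of the 6 passed with edgeR, which again called 0% of all genes. Neither did any with DESeq2 or limma voom, which called 126 and 415 genes, or 0.446% and 2.61%. At an unadjusted p under 0.05, only Cdkn1b was higher, 1 of 6 against 4.33% of all genes, and none was lower, against 5.33%, which makes 9.66% in either direction. Of the 6 differences 4 were above 0, against 50.4% of all genes, with a median of 0.14 log2 units that ran from 0.08 to 0.22 with 1 library left out. Cdkn1b was also the 1 member of 6 whose libraries did not overlap, against 13.2% of all genes. The intervals were wide for the genes that varied most between libraries. The fit gives each gene 1 spread shared by all 9 libraries, so the 21 mo libraries also enter these intervals. Cdkn1a varied by 57.3% of its mean at 21 mo (SD over mean, n = 3), against 26.8% at 18 mo and 12.8% with O304. For Cdkn1a the difference was 0.19 log2 units with a 95% CI of -0.68 to 1.06, and for Cdkn2b it was -0.98 with a 95% CI of -3.30 to 1.34, turning to 0.97 without 18 mo replicate 1. The test of any difference among the 3 groups gave edgeR adjusted p-values of 0.110 for Cdkn1a, 0.185 for Cdkn2b and 0.234 for Cdkn1b, with 0.0189% of all genes called.

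**Figure D3:**
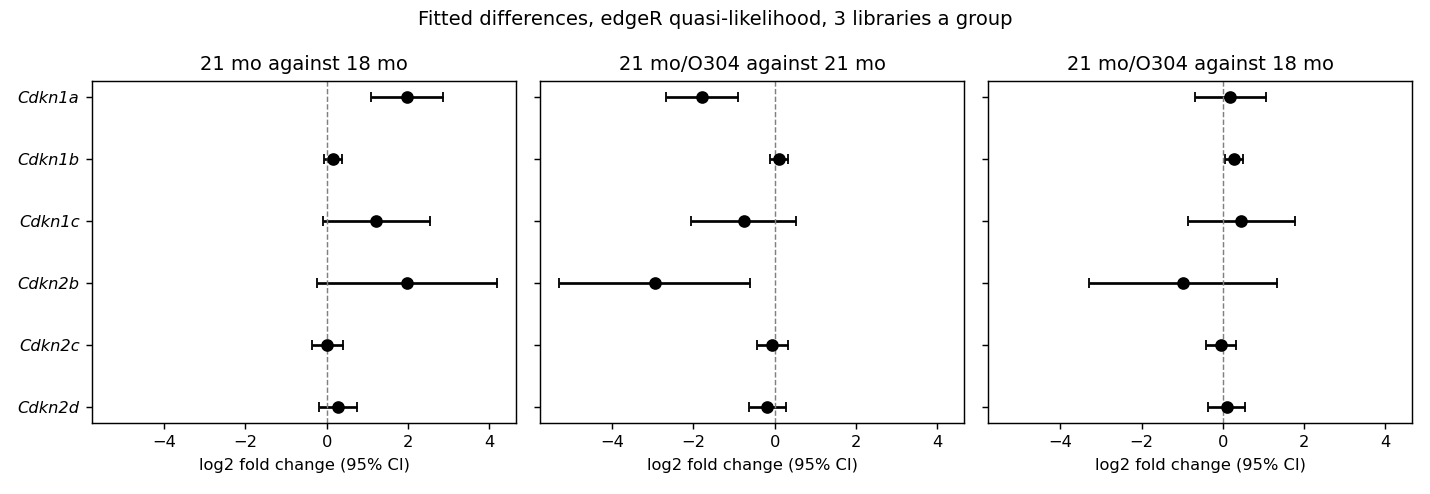
Points give the fitted log2 fold change of the 6 tested genes in each of the 3 comparisons and bars its 95% confidence interval, from edgeR on 3 libraries a group. The interval of Cdkn1a runs from 1.09 to 2.87 in 21 mo against 18 mo and from -2.67 to -0.91 in O304 against 21 mo, and Cdkn2b has the widest interval in each panel.

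**Figure D4:**
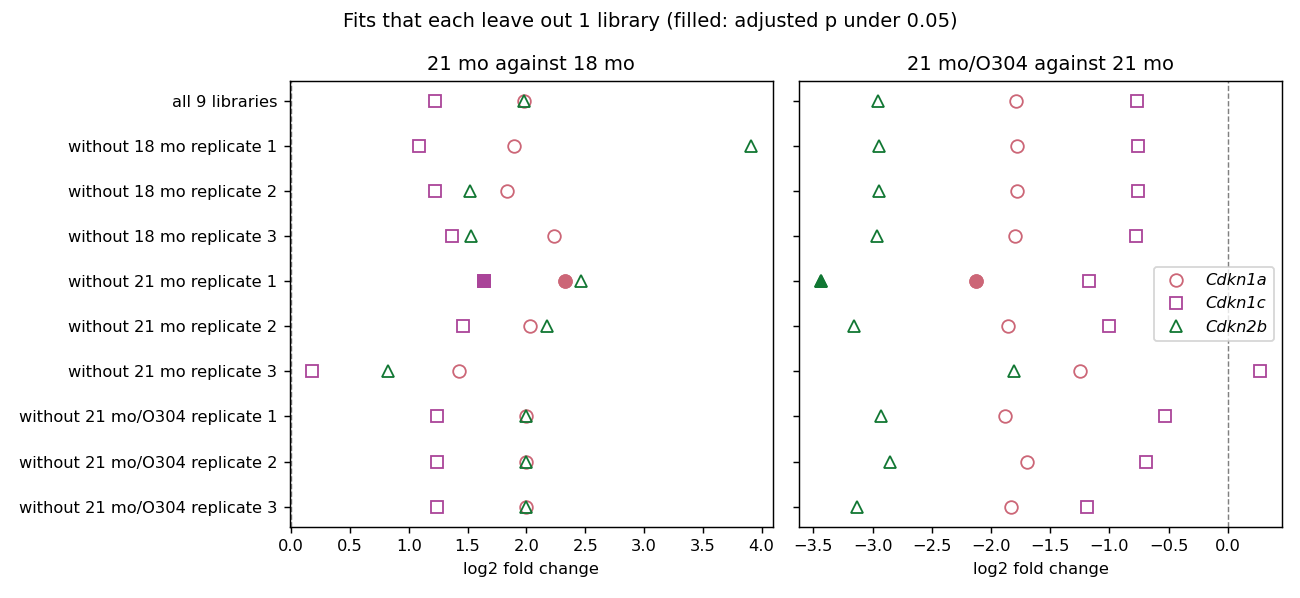
Rows are fits with all 9 libraries or with 1 left out, and the horizontal axis is the log2 fold change of Cdkn1a, Cdkn1c and Cdkn2b in 2 comparisons, filled where the adjusted p is under 0.05. Filled points occur only without 21 mo replicate 1. That fit called 25.4% of all genes in 21 mo against 18 mo and 23.1% in O304 against 21 mo. Without 21 mo replicate 3 Cdkn1c is at 0.17 and Cdkn2b at 0.82 in 21 mo against 18 mo.

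The direct targets of the inhibitors are the CDKs and their cyclins. Of 13 such genes 12 were tested, and edgeR called none in any comparison. In 21 mo against 18 mo 1 of the 12 was higher at an unadjusted p under 0.05, against 14.0% of all genes, and in O304 against 21 mo 4 were lower, against 12.4%. DESeq2 called none of 13 in the first and 1 lower in the second. It called 7.29% and 3.36% of all genes in either direction there. Cdk4 and Cdk6, the kinases that INK4 proteins bind, were at 72.6, 81.7 and 64.8 CPM and at 26.6, 33.8 and 36.0 CPM on average in the 18 mo, 21 mo and O304 groups (edgeR adjusted p = 0.287 for Cdk4 and 0.846 for Cdk6 in O304 against 21 mo). Among the D-type cyclins that pair with them, Ccnd1 was at 172.4, 105.9 and 114.2 CPM, Ccnd2 at 12.6, 21.9 and 12.1 CPM and Ccnd3 at 87.6, 72.8 and 72.3 CPM. Cdk2, the main partner of p21 and p27, was at 13.3, 11.99 and 9.95 CPM.

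Cyclin E1, a partner of Cdk2, was higher in 21 mo replicates 2 and 3 than in every other library, though from few counts elsewhere. Ccne1 was at 0.539 CPM ± 0.0377 at 18 mo, 1.72 ± 1.2 at 21 mo and 0.545 ± 0.114 with O304 (SD, n = 3). Its 21 mo replicates were at 0.334, 2.44 and 2.38 CPM, so that replicate 1 was below every library of both other groups. In replicate 1 a single count is worth 0.0669 CPM, so that low value rests on a few counts. The differences were 1.67 log2 units (edgeR adjusted p = 0.147) for 21 mo against 18 mo and -1.66 (edgeR adjusted p = 0.207) for O304 against 21 mo. Ccne2 was at 2.15, 2.74 and 2.26 CPM in the 3 groups.

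**Figure D5:**
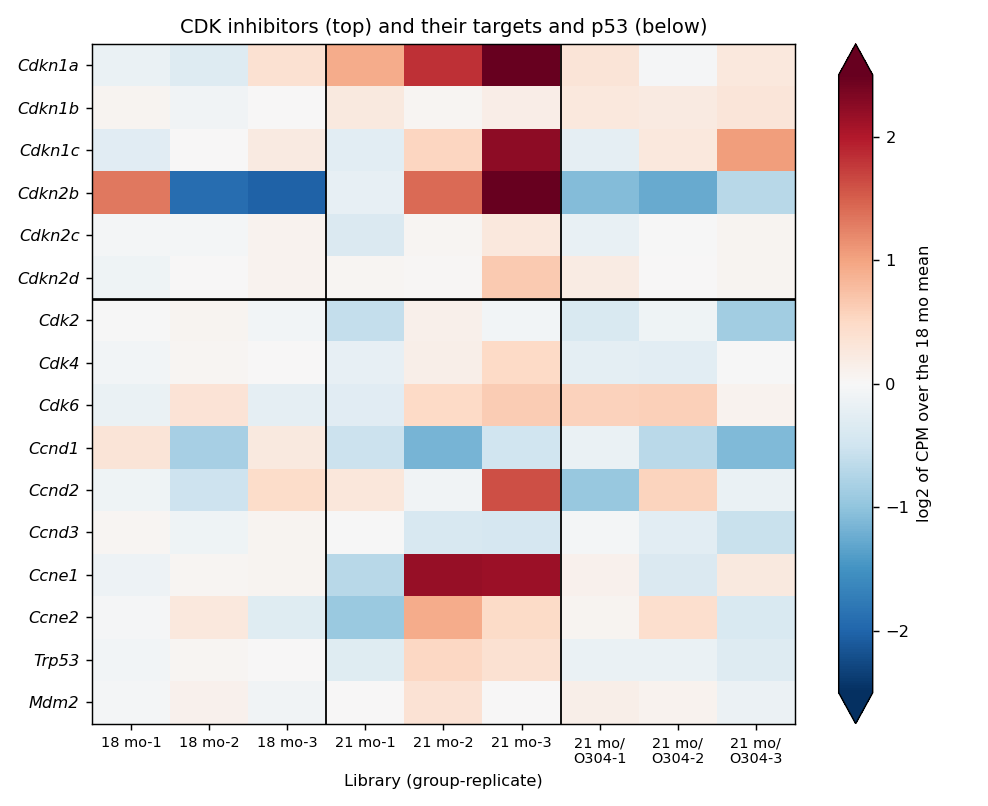
Colours give the log2 ratio of the CPM of each library to the 18 mo mean of the same gene, for the 6 tested inhibitors above the line and for CDKs, cyclins, Trp53 and Mdm2 below it, with colours saturating at the ends of the scale. Cdkn1a is red in all 3 libraries of 21 mo, whereas Ccne1 is red in replicates 2 and 3 and blue in replicate 1.

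Rb, its relatives and the E2F factors are the next step in the pathway, and all 13 listed genes were tested. edgeR called none in any comparison. DESeq2 called 1 of the 13 lower in 21 mo against 18 mo and 1 lower in O304 against 21 mo. It called 7.29% and 3.36% of all genes in either direction there. At an unadjusted p under 0.05, 3 were higher and 1 lower in 21 mo against 18 mo, against 14.0% of all genes higher and 1913 of 15902 lower. E2f2, an activating E2F, was at 7.12, 3.59 and 3.88 CPM on average in the 18 mo, 21 mo and O304 groups (edgeR adjusted p = 0.0835 for 21 mo against 18 mo). Tfdp1, the dimer partner of E2F, was at 29.2, 39.3 and 33.1 CPM (adjusted p = 0.0975), and Rb1 itself at 27.6, 38.6 and 37.1 CPM (adjusted p = 0.106).

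Among 34 upstream regulators of the inhibitors, 11 were higher and 2 lower at an unadjusted p under 0.05 in 21 mo against 18 mo, against 14.0% of all genes higher and 1913 of 15902 lower. In O304 against 21 mo 1 was higher and 10 were lower, against 8.27% and 12.4%. edgeR called none of the 34 in any comparison, and DESeq2 called 5 higher in the first, where it called 7.29% of all genes in either direction, and 1 lower in the second, where it called 3.36%. Myc, which represses Cdkn1a and Cdkn2b with Zbtb17, had the smallest p. It was at 3.20 to 5.20 CPM at 18 mo, 10.03, 25.5 and 23.4 CPM at 21 mo and 6.62 to 7.70 CPM with O304, without overlap between any groups, and differed by 2.19 log2 units between 21 mo and 18 mo (SE 0.35, edgeR adjusted p = 0.0626). Of the TGF-β pathway upstream of Cdkn2b, the receptor gene Tgfbr1 was at 59.5, 110.8 and 74.2 CPM (edgeR adjusted p = 0.0697) and the signal carrier Smad4 at 52.1, 66.1 and 53.5 CPM (edgeR adjusted p = 0.0860) in the 18 mo, 21 mo and O304 groups. Trp53, the gene of p53, was at 28.3, 33.3 and 24.4 CPM (edgeR adjusted p = 0.446), and Mdm2, the ligase that degrades p53, at 52.8, 58.1 and 54.1 CPM (edgeR adjusted p = 0.530).

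The p53 target list of 23 genes includes Cdkn1a. At an unadjusted p under 0.05, 10 of the 23 were higher and none lower in 21 mo against 18 mo, where 14.0% of all genes were higher and 26.1% passed in either direction, and 6 were lower and none higher in O304 against 21 mo, where 12.4% were lower and 20.7% passed in either direction. edgeR called none of them after adjustment. DESeq2 called 5 higher in the first comparison and 2 lower in the second. It called 7.29% and 3.36% of all genes in either direction there. Cdkn1a itself was among the genes counted in each comparison, both at the unadjusted p and with DESeq2. The median difference was 0.36 log2 units against 0.03 for all genes, and -0.32 against -0.02. Eda2r, a receptor of the tumour necrosis factor receptor superfamily, was at 2.06, 7.22 and 2.05 CPM, Btg2, an antiproliferative gene, at 21.7, 60.0 and 28.8 CPM and Sesn1, a stress-response gene, at 15.04, 22.7 and 20.4 CPM in the 18 mo, 21 mo and O304 groups. Their edgeR adjusted p-values for 21 mo against 18 mo lay between 0.0792 and 0.0836.

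Genes of DNA replication and mitosis, which CDK inhibitors hold back, were set beside the inhibitors. At an unadjusted p under 0.05, 6 of 22 were higher in 21 mo against 18 mo, against 14.0% of all genes, and 16 were lower in O304 against 21 mo, against 12.4%, with none in the opposite direction and none called by edgeR. DESeq2 called 1 higher and 6 lower in the same comparisons, where it called 7.29% and 3.36% of all genes in either direction. Pcna, the clamp of DNA polymerase and a protein that p21 binds, was at 44.4, 57.4 and 43.8 CPM on average in the 18 mo, 21 mo and O304 groups (edgeR adjusted p = 0.0933 for 21 mo against 18 mo and 0.175 for O304 against 21 mo). The nucleotide synthesis genes Rrm1 and Tyms were at 13.4, 21.8 and 13.8 CPM and at 11.98, 17.2 and 14.1 CPM. These 3 genes were named for their small p, and in each of them every 21 mo library was above every library of both other groups. Over the list, 4 of 22 lay wholly above 18 mo at 21 mo, against 13.5% of all genes. With O304, 8 of 22 lay wholly below 21 mo, against 10.5%, and 10 of 22 wholly below 18 mo, against 13.3%. In O304 against 18 mo, 19 of 22 differences were below 0, with a median of -0.48 log2 units. Of these genes 2 were lower at an unadjusted edgeR p under 0.05, against 5.33% of all genes, and edgeR called none. Summed over the 22 genes, the level was 208.0 to 235.5 CPM at 18 mo, 203, 374 and 338 CPM in the 21 mo replicates and 178 to 188 CPM with O304, so that 21 mo replicate 1 was below every 18 mo library.

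For each tested inhibitor, the 3 protein-coding genes whose log2 CPM ran most closely with it over the 9 libraries were sought among 13910 genes, as a description only, since all points share the same libraries and the same spread of cell makeup. For Cdkn1a these were Rsu1, Mapre1 and Pcna, with Pearson's r of 0.984, 0.983 and 0.982. For Cdkn1c they were Mfap5 (0.979), Ctgf (0.969) and Prss23 (0.966), and for Cdkn2b Proser2 (0.983), Gprc5a (0.981) and Grhl2 (0.972). Ctgf is a matrix-associated growth factor gene and Grhl2 a transcription factor of epithelia. Those of Cdkn1b were Proser3, Actr8 and Irf2, with r from 0.923 to 0.929. Those of Cdkn2c were Ggt5, Ccdc69 and Wdr66, with r from 0.952 to 0.974, and those of Cdkn2d were Pamr1, Piezo2 and Fcgr2b, with r from 0.946 to 0.961. Among the inhibitors themselves, r was highest between Cdkn1c and Cdkn2c, at 0.808, and Cdkn1b had an r of at most 0.242 with any other.

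Markers of other cell types also differed between the libraries in which the inhibitors differed. All 7 fibroblast and all 7 macrophage markers were highest in 21 mo replicate 3, at 1389 and 3575 CPM summed, against 183 to 283 and 299 to 506 CPM at 18 mo and 117 to 266 and 551 to 592 CPM with O304. In 21 mo replicate 1, where Cdkn1a was at 23.9 CPM and above every 18 mo library, the fibroblast markers summed to 141 CPM, within 117 to 283 CPM of the other groups, and the proximal tubule markers lay within the 18 mo range. Macrophage markers in that library summed to 751 CPM and injured tubule markers to 1678 CPM, each above every library of both other groups, and its neutrophil markers, at 64.0 CPM, were the highest of all 9 libraries. Endothelial markers summed to 290 to 429, 221 to 360 and 318 to 569 CPM and neutrophil markers to 6.65 to 12.4, 18.8 to 64.0 and 14.0 to 22.8 CPM in the 18 mo, 21 mo and O304 groups. Adipocyte markers summed to 1.23 to 7.47, 2.14 to 5.08 and 8.64 to 81.6 CPM, with Adipoq at 0 in 2 of the 18 mo libraries and at 21.6 CPM in O304 replicate 1. The summed markers of thick limb and distal tubule, collecting duct and T and B cells overlapped between all 3 groups, but single markers did not all do so. With O304, 3 of 6 thick limb and distal markers and 1 of 7 T and B cell markers lay wholly above 21 mo, against 10.8% of all genes. At 21 mo, 2 of 6 collecting duct markers lay wholly below 18 mo, against 15.3%. The part of these cell types in the levels of the inhibitors was not tested.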

How the data were processed

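Kidney RNA of 9 libraries in 3 groups of 3 was taken by group from the sample titles. The submitters' processing notes name the aligner HISAT2 (version 2.0.5), the counter featureCounts (version 1.5.0-p3), DESeq2 (version 1.20.0), GRCm38 and mm10. The deposited counts are whole reads per gene without normalization, and the deposited FPKM are the authors' scaling of these by gene length and library size. Fold changes and p-values of the authors' own comparisons stand in the same table and were not used. Strand setting and the treatment of reads with several hits are not given in the sources used here. Coordinates are those of the authors' table, checked against RefSeq GRCm38.p6.

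Of 54532 genes, 15902 passed edgeR's filterByExpr (minimum count 10, minimum total 15). Counts were scaled by TMM and tested with edgeR's quasi-likelihood test (edgeR 4.0.16, R 4.3.3) on 3 group means over all 9 libraries, with 6 residual degrees of freedom, two-sided and Benjamini-Hochberg adjusted over all genes tested. log2 CPM used a prior count of 2. Single values were compared by the exact permutation test, two-sided. The scripts were tested on simulated data. Total counts of 15636378 to 18396725 limit what genes of few counts can show. The SE of an edgeR fold change was its size over the square root of the F statistic of its test. Confidence intervals were built from that SE with the t distribution, so they restate the test.

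The alternatives were DESeq2 1.42.0, other size factors, other filters, a fit on the 6 libraries of a comparison alone, a block for replicate number, sample-weighted limma voom (limma 3.58.1), limma-trend on log2(FPKM + 1) and log2(FPKM + 0.1) for genes of mean FPKM of at least 0.5, and leaving out each library in turn. A fit without 2 libraries and the urothelial and mesothelial lists were added after the values were seen. All 7 members are described. Named besides them are 8 CDKs and cyclins, Trp53, Mdm2, up to 3 genes of smallest p per list for 21 mo against 18 mo, and the 3 genes most like each member. Cd81, Tssc4, Kcnq1, Nap1l4, Clic5, Adipoq, Havcr1, Lcn2 and the urothelial and mesothelial genes were named after their values were seen. The members and lists were chosen with earlier results of these data known.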

Additional observations from a re-analysis of the deposited data

How the results depend on the processing

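Of 357 refitted fold changes of the 6 genes, 323 kept their direction and their side of the threshold, 13 passed it and 21 turned in direction, none of them with an adjusted p under 0.05. Counts of all genes called moved most. In 21 mo against 18 mo the 3 genes called became 2059 with DESeq2, 576 without a filter, 8409 with limma voom and weights, 1 without 2 libraries, 0 with only the 6 libraries compared and 0 to 4186 with 1 library left out. Members called became 1 with DESeq2, 1 without a filter, 2 with limma voom and 0 to 2 with 1 library left out. In 21 mo/O304 against 21 mo, all genes called went from 0 to 947 with DESeq2, 17 without a filter, 6528 with limma voom and 0 to 3808 with 1 library left out, and members called to 2, 0, 3 and 0 to 2. In 21 mo/O304 against 18 mo the 0 genes called became 126 with DESeq2, 22 with only the 6 libraries, 415 with limma voom and 0 to 12 with 1 library left out, and no member was called. The cause of these moves was not tested.

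In 21 mo against 18 mo, Cdkn1a passed with DESeq2 (1.97 log2 units), without a filter (1.99) and with limma voom (1.72), and Cdkn2b with limma voom (2.65). With 1 library left out, Cdkn1a lay between 1.43 and 2.32, Cdkn1c between 0.17 and 1.64, Cdkn2b between 0.82 and 3.91, Cdkn2c between -0.15 and 0.18 and Cdkn2d between 0.027 and 0.39. In 21 mo/O304 against 21 mo, Cdkn1a passed with DESeq2 (-1.78) and limma voom (-1.64), Cdkn2b with both (-2.95 and -2.41) and Cdkn1b with limma voom (0.20). With 1 library left out, Cdkn1a lay between -2.13 and -1.25, Cdkn2b between -3.43 and -1.80, Cdkn1c between -1.19 and 0.28, Cdkn2c between -0.22 and 0.10 and Cdkn2d between -0.29 and 0.061. Cdkn2d turned to 0.049 with limma voom. In 21 mo/O304 against 18 mo, Cdkn2b lay between -1.43 and 0.97 and Cdkn2c between -0.084 and 0.027 with 1 library left out, and Cdkn2b turned to 0.24 with limma voom. On log2(FPKM + 1) and log2(FPKM + 0.1), Cdkn2c turned to -0.0096 and -0.013 in 21 mo against 18 mo. Without both 18 mo replicate 1 and 21 mo replicate 3, values turned to -0.18 for Cdkn2c and -0.020 for Cdkn2d in 21 mo against 18 mo, to 0.27, 0.10 and 0.060 for Cdkn1c, Cdkn2c and Cdkn2d in O304 against 21 mo and to 0.96 for Cdkn2b in O304 against 18 mo. The filter of 10 counts in every library removed Cdkn2b.

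No clear pairing of the libraries by replicate number was seen. The correlations of deviations of same-numbered libraries ran from -0.13 to 0.17, and 4 of 9 libraries correlated best with their own number. With 3 libraries a group, and those at 21 mo unlike, these values cannot exclude a pairing. With the replicate number as a block, edgeR called 0 genes in 21 mo against 18 mo, Cdkn2c turned to -0.0044 there and no member was called in any comparison.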
